A study of Mus musculus with 15 samples.

Results

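Polyamine metabolism was followed through 9 genes of mouse embryonic stem cells, chosen by symbol (the row with the highest mean count for each symbol) out of 37310 genes in the count table. The set covers the synthesis enzymes Odc1, Amd1, Srm and Sms, the breakdown enzymes Sat1 and Smox, and the antizyme system, which is made up of Oaz1, Oaz2 and Azin1. All 9 genes were found, and all 9 passed the filter on low counts in every comparison. All cells were of the J1 line, an embryonic stem cell line of mouse, grown in serum with the cytokine LIF, which holds such cells in their self-renewing state. The 5 groups were cells lacking Taf5l (Taf5l-KO), cells lacking Taf6l (Taf6l-KO) and the wild-type J1 cells sequenced beside both (WT-Taf), and cells lacking c-Myc (cMyc-KO) and their own wild-type J1 cells (WT-Myc), with 3 libraries each. The first 3 groups are called the Taf experiment here and the last pair the Myc experiment. The labels give neither the number of clones behind a knockout nor whether replicates came from separate cultures, so p-values measure the spread between these libraries only.

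Polyamines (putrescine, spermidine and spermine) are small positively charged molecules that bind nucleic acids and are needed for growth and translation. Ornithine decarboxylase makes putrescine, and spermidine synthase and spermine synthase lengthen it with aminopropyl groups from decarboxylated S-adenosylmethionine. Antizymes bind ornithine decarboxylase and send it to the proteasome, and antizyme inhibitor holds antizymes back. Odc1 and other genes of the pathway are widely described as targets of MYC, a transcription factor that binds DNA as a dimer with MAX. TAF5L and TAF6L are subunits of SAGA, a co-activator complex that carries histone acetyltransferase activity. The design text gives the aim as a comparison of each knockout with its wild type.

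Total counts per library ranged over 17139357 to 20655500 (Taf5l-KO), 17446821 to 21767884 (Taf6l-KO), 14935631 to 20337365 (WT-Taf), 22193018 to 27650813 (cMyc-KO) and 17922864 to 23869375 (WT-Myc). The experiments differed in RNA makeup: small non-coding RNAs took 1.55% to 2.54% of counts in the Taf knockouts and 1.89% to 2.19% in WT-Taf, but 0.0225% to 0.0581% in cMyc-KO and 0.0345% to 0.0436% in WT-Myc, although the labels give all libraries the same preparation. Levels are therefore set against each other only within an experiment. CPM (counts scaled to a common library size, in the usual per-megaread unit) were computed within an experiment. Summed CPM of the 8 stem cell markers lay between 4362 and 4484 (Taf5l-KO), 4303 and 4397 (Taf6l-KO) and 4859 and 4954 (WT-Taf), and between 6609.7 and 6900.3 (cMyc-KO) and 6073 and 6276 (WT-Myc). All 8 were detected in every group, those of primitive endoderm, trophectoderm and mesoderm summed to 3.03 to 10.2 CPM per list, and the 7 fibroblast markers for feeder cells summed to at most 9.004 CPM, with Dcn and Lum at 0 in all libraries. Of the 4 neuroectoderm markers listed, Sox1 was not found in the count table and Neurog2 had at most 1 count per library. The 3 found summed to 9.65 to 13.6 CPM (Taf5l-KO) and 11.8 to 13.7 (Taf6l-KO), beside 5.82 to 7.86 (WT-Taf). In the Myc experiment they summed to 14.2 to 16.5 (cMyc-KO) beside 18.7 to 19.5 (WT-Myc). Of them, Pax6 rose by 0.92 and 0.88 (log2) in the Taf knockouts and fell by 0.46 in cMyc-KO, and Nes rose by 0.64 and 0.84 in the Taf knockouts. By the edgeR test below, 1 of the 8 stem cell markers was higher and 4 lower in Taf5l-KO. In Taf6l-KO 6 were lower, and in cMyc-KO 3 were higher. Of 4 tested primitive endoderm markers, 1 was higher and 2 lower in each Taf knockout, and 1 was higher in cMyc-KO. Of 3 tested mesoderm markers, 1 was higher in each knockout. Trophectoderm had 1 higher and 1 lower in Taf6l-KO and cMyc-KO. Over all tested genes, 33.2%, 37.2% and 34.8% were called. Marker sums differed between knockout and wild type; their part in the results below was not tested. Replicate 3 of cMyc-KO stood apart in its group: the chi-square of its counts, divided by the degrees of freedom, was 36.4 when set against replicate 1 and 26.3 against replicate 2, while replicates 1 and 2 gave 5.07. Less far apart was replicate 3 of WT-Myc, with 9.32 and 7.65, while replicates 1 and 2 there gave 3.47. In the Taf experiment the highest value was 14.1, for Taf5l-KO replicates 1 and 3.

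The targeted genes followed their labels. Taf5l had 43.0, 42.9 and 41.7 CPM in Taf5l-KO, against 88.1, 85.3 and 84.5 CPM in WT-Taf, so that its log2 ratio was -1.02 ± 0.037 (SE). In turn, Taf6l had 6.53, 7.17 and 6.06 CPM in Taf6l-KO, against 26.8, 26.3 and 25.2 CPM in WT-Taf (-1.99 ± 0.080). Myc had 31.0, 28.5 and 28.0 CPM in cMyc-KO, against 64.7, 68.8 and 66.7 CPM in WT-Myc (-1.20 ± 0.060). Each targeted transcript was lower in all its knockout libraries and none was lost from the counts. Taf6l was also lower in Taf5l-KO (-0.35 ± 0.068, edgeR adjusted p = 0.00126), a call lost under 1 of 16 alternatives. Taf5l was not called in Taf6l-KO (0.06, edgeR adjusted p = 0.179). Myc itself was lower in both Taf knockouts, with 43.2, 41.6 and 43.4 CPM in Taf5l-KO and 39.3, 41.5 and 36.1 CPM in Taf6l-KO, against 70.2, 65.6 and 71.9 CPM in WT-Taf. The log2 fold changes of Myc there were -0.69 ± 0.051 and -0.83 ± 0.051. The relatives of Myc went the other way: Mycn rose by 0.37 ± 0.0315 in Taf5l-KO and 0.35 ± 0.0314 in Taf6l-KO, and Mycl by 0.39 ± 0.104 and 0.53 ± 0.101, the Mycl calls being lost under 4 and 3 of 16 alternatives, the tests on FPKM among them. In cMyc-KO, Mycn was not called (-0.15 ± 0.051, edgeR adjusted p = 0.0533), and Mycl rose by 0.34 ± 0.109, a call lost under 9 of 15 alternatives.

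The antizyme messages carry the feature that ties them to polyamine levels: a stop codon inside the reading frame that ribosomes pass by slipping a single base when polyamines are plentiful. The windows around that stop are shown because Oaz1 and Oaz2 moved together in the Taf knockouts; capitals mark the codon before the stop and the stop itself. The annotated build differs from the mm9 that the submitters' notes name, and only sequence is taken from it. The windows were read from GENCODE M21 transcripts of build GRCm38, plus strand, at chr10:80828277-80828306 for Oaz1 and chr9:65686254-65686283 for Oaz2.
Oaz1: gggcctcggtggtgcTCCTGAtgtccctca
Oaz2: gggcctctgtggtgcTCCTGAtgcccctca
The windows share 28 of 30 bases, the capitals included.

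Amd1 carries a second kind of polyamine control, a short reading frame in its leader that slows translation of the main frame when polyamines are abundant. It lies at chr10:40302155-40302175 on the minus strand of GRCm38, starts at base 12 of the transcript, ahead of the main frame at base 329, and holds 6 codons before its stop. Capitals mark its start and stop codons.
Amd1 upstream frame: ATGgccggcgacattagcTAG
Since such control acts on translation, read counts of the message do not report on it.

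Promoter windows of RefSeq (build GRCm38.p6, 250 bases before to 50 after the gene start) were found for 7 of the 9 genes, in 8 windows. Srm and Azin1 had no window. The windows of Odc1 and Sms are shown because Odc1 is the textbook MYC target of the set, while Sms moved in opposite directions in the Taf and Myc knockouts. Capitals mark CACGTG, the E-box that MYC and MAX bind, and its variant CACGCG on either strand. The Odc1 window is chr12:17544623-17544922 on the plus strand, and the Sms windows are chrX:157491319-157491618 and chrX:157492238-157492537 on the minus strand.
Odc1: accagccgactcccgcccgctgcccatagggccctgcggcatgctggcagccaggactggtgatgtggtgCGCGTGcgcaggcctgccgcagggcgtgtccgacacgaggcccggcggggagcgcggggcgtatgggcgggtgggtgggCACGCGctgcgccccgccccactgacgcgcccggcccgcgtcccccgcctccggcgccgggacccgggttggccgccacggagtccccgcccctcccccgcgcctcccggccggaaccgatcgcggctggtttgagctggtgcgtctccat
Sms, start nearer the gene: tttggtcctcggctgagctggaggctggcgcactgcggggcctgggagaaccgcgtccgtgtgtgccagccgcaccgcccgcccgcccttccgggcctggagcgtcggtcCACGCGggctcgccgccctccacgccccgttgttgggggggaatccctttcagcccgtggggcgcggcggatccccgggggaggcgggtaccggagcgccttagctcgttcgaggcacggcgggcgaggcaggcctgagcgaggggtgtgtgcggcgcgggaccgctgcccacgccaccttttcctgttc
Sms, upstream start: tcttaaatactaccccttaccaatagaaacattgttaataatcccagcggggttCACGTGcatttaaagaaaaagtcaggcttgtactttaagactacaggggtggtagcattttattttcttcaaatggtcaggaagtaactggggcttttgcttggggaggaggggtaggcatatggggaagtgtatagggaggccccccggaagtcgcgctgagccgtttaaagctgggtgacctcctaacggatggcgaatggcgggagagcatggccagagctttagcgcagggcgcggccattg
CACGTG was in 1 of the 8 windows, the upstream one of Sms, and in 7.15% of all 32851 windows of the table. CACGCG was in 3 of the 8, those of Odc1, Oaz1 and Sms, and in 9.27% of all windows. Smox and Sat1 also moved in opposite directions in the Taf and Myc knockouts, and their windows held no match to either motif. These matches are letters in a window, and binding was not measured. Sequence outside the windows, such as introns further into the gene, was not searched.

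Per kilobase of its longest coding transcript, Odc1 was the most abundant of the 9 genes in all 5 groups and Smox the least. Its mean CPM per kilobase was 315 ± 9.96 (Taf5l-KO), 294 ± 2.51 (Taf6l-KO) and 329.9 ± 6.89 (WT-Taf), and 299.7 ± 5.90 (cMyc-KO) and 321 ± 9.67 (WT-Myc), with SD over 3 libraries. Oaz1, the main antizyme, came next with group means of 184 to 267 CPM per kilobase, and then Srm with 107 to 168. Amd1 followed with 65.9 to 74.4, then Azin1 with 29.5 to 39.7 and Oaz2 with libraries between 24.5 and 36.6. The libraries' ranges of Azin1 and Oaz2 overlapped in Taf5l-KO (33.6 to 37.7 against 32.7 to 35.8 CPM per kilobase) and in cMyc-KO, and those of Oaz2 and Sms in WT-Myc, so these neighbours were not told apart there. Sms and Sat1 exchanged places: the mean of Sms was the higher one in Taf5l-KO (19.0 against 14.6 for Sat1), Taf6l-KO (17.8 against 15.0) and WT-Myc (libraries of 22.2 to 25.7 against 12.2 to 14.0), while in WT-Taf Sat1 was higher (19.3 against 16.0 for Sms). In cMyc-KO the means were 15.9 and 15.6 CPM per kilobase, with overlapping ranges. Smox averaged 4.03 (Taf5l-KO), 4.87 (Taf6l-KO) and 3.04 (WT-Taf) CPM per kilobase in the Taf experiment, and 5.75 (cMyc-KO) and 9.41 (WT-Myc) in the Myc experiment. The order of the 9 genes rests on the choice of the longest transcript. By mean deposited FPKM, Srm was above Odc1 in WT-Taf (545.7 against 523.1, ranges overlapping), cMyc-KO (518.1 against 414.2) and WT-Myc (683.1 against 433.9). In both Taf knockouts Odc1 was above Srm. Smox was above Amd1 in cMyc-KO (97.6 against 69.3, ranges overlapping) and WT-Myc (137.7 against 76.6). In the Taf experiment Smox was the lowest of the 9.

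**Figure D1:**
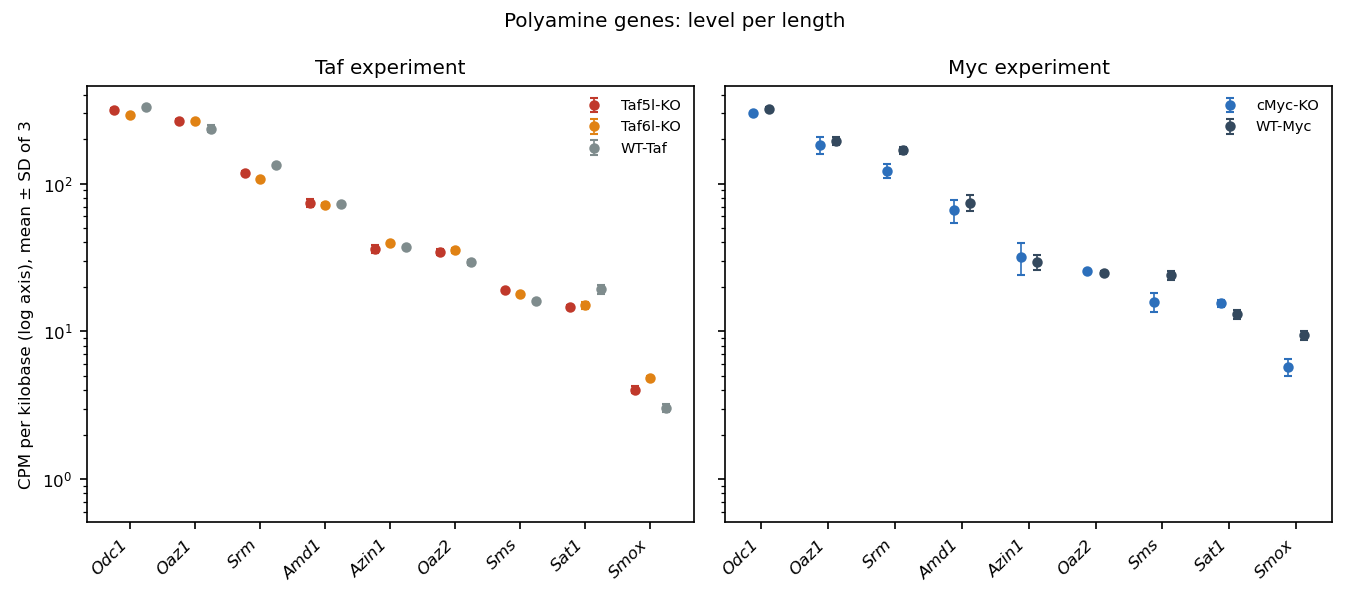
Mean CPM per kilobase of the longest coding transcript (log axis, bars are SD of 3 libraries) for the 9 genes, with the Taf experiment on the left and the Myc experiment on the right. By this measure, but not by FPKM, the order Odc1, Oaz1, Srm, Amd1 held in all 5 groups. Odc1 means were 294 to 329.9 and Smox means 3.04 to 9.41 CPM per kilobase.

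Each knockout was tested against its own wild type with edgeR's quasi-likelihood test, and a gene was called at a Benjamini-Hochberg adjusted p under 0.05 over all genes tested. In Taf5l-KO, 6 of the 9 genes were called, 4 higher and 2 lower, beside 33.2% of all 15743 tested genes (17.4% higher, 15.9% lower). In Taf6l-KO, 7 were called, 4 higher and 3 lower, beside 37.2% of all tested genes (19.1% higher, 18.2% lower). In cMyc-KO, 4 were called, 1 higher and 3 lower, beside 34.8% of 14563 tested genes (15.2% higher, 19.5% lower). The split of calls over all genes depended on the scaling. With library totals it was 2294 higher and 2752 lower in Taf5l-KO (2735 and 2499 with TMM), 4080 and 1837 in Taf6l-KO (3003 and 2858) and 2691 and 2450 in cMyc-KO (2217 and 2847), so that the larger direction turned in Taf5l-KO and cMyc-KO. Changes were modest: the median absolute log2 fold change of the 9 genes was 0.18 in Taf5l-KO, 0.17 in Taf6l-KO and 0.18 in cMyc-KO, beside 0.17, 0.19 and 0.23 over all tested genes. The median signed change of the 9 was 0.04, 0.09 and -0.10, beside 0.00, 0.02 and -0.00 over all genes. In bulk RNA, fewer cells of a kind and less RNA per cell cannot be told apart. Both Taf knockouts were set against the same WT-Taf libraries, so their changes share those libraries and are given side by side.

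**Figure D2:**
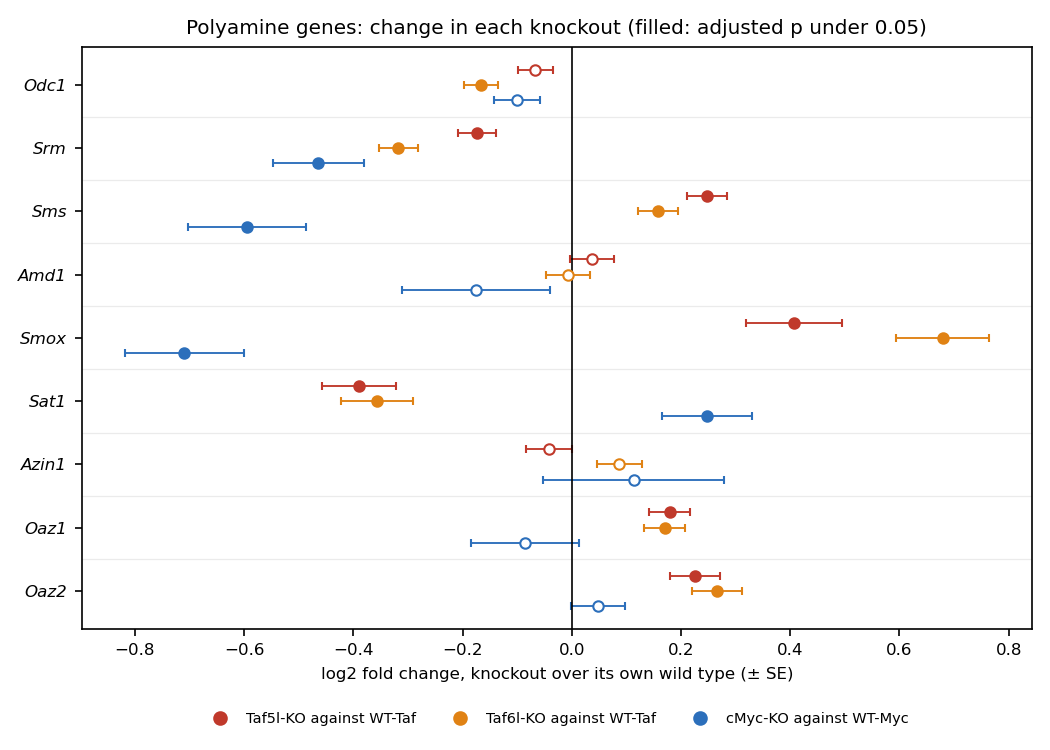
Log2 fold change of each gene in each knockout over its own wild type, with bars of 1 SE; filled points passed an adjusted p of 0.05. Srm lay below 0 in all 3 knockouts, whereas Sms and Smox lay above 0 in both Taf knockouts and below 0 in cMyc-KO, and Sat1 showed the opposite pattern.

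Odc1 (ENSMUSG00000011179.6, chromosome 12), which encodes the first and rate-limiting enzyme, was lower in every knockout library than in any library of its wild type, by a small margin. It had 670.1, 708 and 708 CPM in Taf5l-KO and 644, 655 and 649 CPM in Taf6l-KO, against 745, 726 and 714 CPM in WT-Taf. In the other experiment it had 671, 668 and 647 CPM in cMyc-KO, against 729, 686 and 713 CPM in WT-Myc. Groups of this kind that did not overlap were common, with 44.7% of tested genes in Taf5l-KO, 49.0% in Taf6l-KO and 49.6% in cMyc-KO. The log2 fold change was -0.17 ± 0.031 in Taf6l-KO (edgeR adjusted p = 0.000821), and this call was kept under all 16 alternatives, narrowly with library totals (-0.10, adjusted p = 0.0480). In Taf5l-KO it was -0.07 ± 0.031 (adjusted p = 0.122) and in cMyc-KO -0.10 ± 0.043 (adjusted p = 0.107), neither of them called. The cMyc-KO value of Odc1 stood beside -1.20 for Myc itself.

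Srm (ENSMUSG00000006442.10, chromosome 4), spermidine synthase, fell in all 3 knockouts. It had 161, 161 and 152 CPM in Taf5l-KO and 143, 147 and 139 CPM in Taf6l-KO, against 183, 174 and 177 CPM in WT-Taf. All knockout libraries were below all wild-type libraries, with Taf6l-KO the lowest. The log2 fold changes were -0.17 ± 0.035 in Taf5l-KO (edgeR adjusted p = 0.00160) and -0.32 ± 0.035 in Taf6l-KO (adjusted p = 7.31e-06). It had 176, 169.5 and 143 CPM in cMyc-KO, against 211, 228 and 235 CPM in WT-Myc, again with no overlap (-0.46 ± 0.084, adjusted p = 0.00428). The call in Taf5l-KO ended when all 15 libraries shared a single fit (-0.18, adjusted p = 0.0689), and the calls in Taf6l-KO and cMyc-KO were kept under every alternative run.

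Sms (ENSMUSG00000071708.5, chromosome X), spermine synthase, which makes the longest of the polyamines, rose in the Taf knockouts and fell in cMyc-KO. It had 69.2, 69.8 and 72.4 CPM in Taf5l-KO and 64.8, 66.9 and 67.0 CPM in Taf6l-KO, against 60.7, 57.5 and 60.1 CPM in WT-Taf. Every knockout library was above every WT-Taf library. The log2 fold changes were 0.25 ± 0.037 in Taf5l-KO (edgeR adjusted p = 0.00015) and 0.16 ± 0.037 in Taf6l-KO (adjusted p = 0.00406), the second of which was lost with DESeq2 (0.14, adjusted p = 0.0535) and in the single fit (0.15, adjusted p = 0.164). It had 58.6, 50.5 and 67.6 CPM in cMyc-KO, against 95.7, 89.2 and 82.4 CPM in WT-Myc, with every knockout library below every wild-type one. That fall of 0.60 ± 0.108 on the log2 scale (adjusted p = 0.00437) was kept under all 15 alternatives.

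Amd1 (ENSMUSG00000075232.3, chromosome 10), S-adenosylmethionine decarboxylase, which supplies the aminopropyl groups, was called in no knockout. It had 222, 245 and 248 CPM in Taf5l-KO and 223, 236 and 234 CPM in Taf6l-KO, against 231, 230.4 and 235 CPM in WT-Taf, and the groups overlapped. The log2 fold changes were 0.04 ± 0.040 and -0.01 ± 0.040 (edgeR adjusted p = 0.536 and 0.908). In cMyc-KO it had 185, 193 and 255 CPM, against 266, 242 and 206 CPM in WT-Myc, so that the groups overlapped through replicate 3 of cMyc-KO (-0.18 ± 0.136, adjusted p = 0.356). Without cMyc-KO replicate 3 the value was -0.31 (adjusted p = 0.0152) and Amd1 was called. Near-identical copies can share its reads: Amd2 was listed with 186 to 369 counts per library and Amd-ps3 with 0 to 432, beside a mean of 4721 for Amd1, so the split among them is uncertain.

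**Figure D3:**
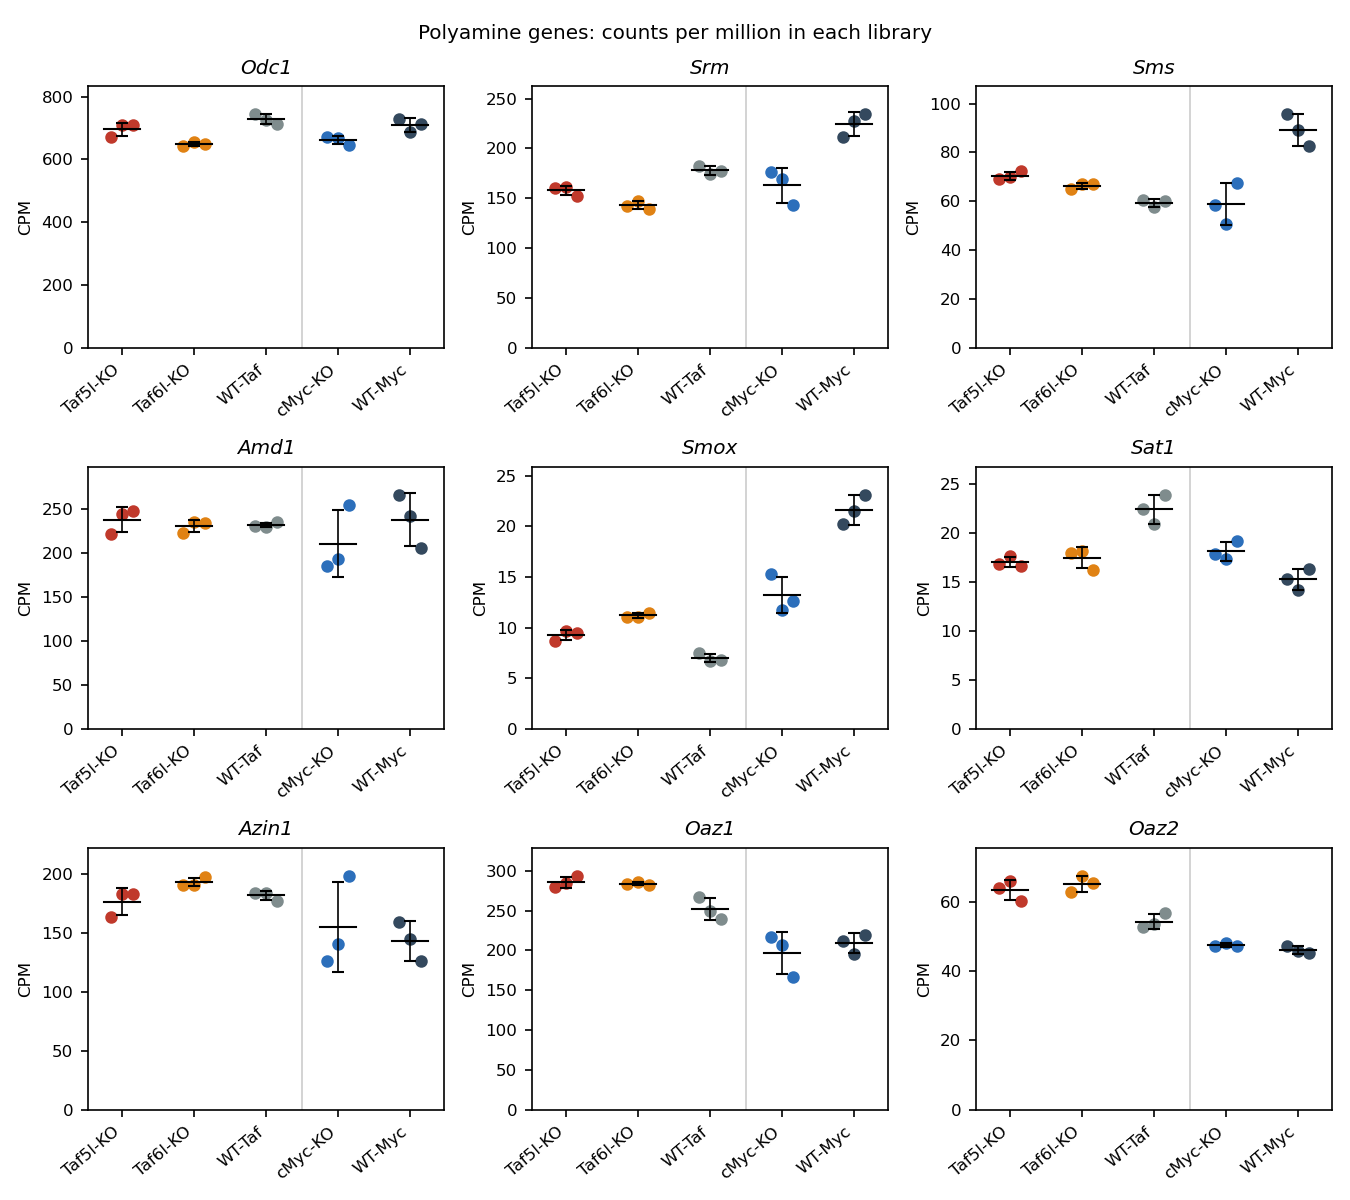
CPM of each gene in every library (points), with the mean and SD of 3 libraries, scaled within each experiment; a vertical line separates the Taf experiment from the Myc experiment. Points of cMyc-KO replicate 3, the right-hand one of its group, lay at 255 CPM for Amd1 and 198 for Azin1, above both other libraries of the group, and at 167 CPM for Oaz1, below them.

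Sat1 (ENSMUSG00000025283.9, chromosome X), the acetyltransferase that marks spermidine and spermine for breakdown or export, fell in both Taf knockouts. It had 16.8, 17.6 and 16.6 CPM in Taf5l-KO and 17.9, 18.1 and 16.2 CPM in Taf6l-KO, against 22.4, 20.9 and 23.8 CPM in WT-Taf, with no overlap. The log2 fold changes were -0.39 ± 0.068 (edgeR adjusted p = 0.000491) and -0.36 ± 0.066 (adjusted p = 0.000712), both kept under all 16 alternatives, with values for Taf6l-KO between -0.61 and -0.29. It had 17.8, 17.3 and 19.1 CPM in cMyc-KO, against 15.3, 14.1 and 16.3 CPM in WT-Myc, higher in all 3 libraries. That rise of 0.25 ± 0.082 (adjusted p = 0.0492) was only just called and was lost under 12 of 15 alternatives, including the removal of any 1 library. Sat1 and Sms lie on chromosome X, where 177 of 564 tested genes were lower and 64 higher in Taf5l-KO, 193 lower and 73 higher in Taf6l-KO, and 91 lower and 87 higher of 538 in cMyc-KO. The median log2 fold change on chromosome X was -0.13 in Taf5l-KO, -0.10 in Taf6l-KO and 0.02 in cMyc-KO. Over all tested genes it was 0.0005, 0.02 and -0.0018. The part of that chromosome in the changes of Sat1 and Sms was not tested.

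Smox (ENSMUSG00000027333.9, chromosome 2), spermine oxidase, which turns spermine back into spermidine, had the largest changes of the 9 genes by read count in Taf6l-KO; its lead over Sat1 in Taf5l-KO and over Sms in cMyc-KO was within the error. It had 8.67, 9.68 and 9.45 CPM in Taf5l-KO and 11.04, 11.1 and 11.5 CPM in Taf6l-KO, against 7.49, 6.71 and 6.77 CPM in WT-Taf. All knockout libraries were above all WT-Taf libraries. The log2 fold changes were 0.41 ± 0.088 (edgeR adjusted p = 0.00259) and 0.68 ± 0.085 (adjusted p = 2.27e-05). In the Myc experiment it had 15.3, 11.8 and 12.6 CPM in cMyc-KO, against 20.2, 21.5 and 23.1 CPM in WT-Myc, with every knockout library below every wild-type one (-0.71 ± 0.109, adjusted p = 0.00198).

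The deposited FPKM, which divide by a transcript length, showed less of this for Smox. They were 78.2, 80.1 and 64.8 in Taf6l-KO, against 74.6, 58.8 and 65.5 in WT-Taf, and these groups overlapped. With limma on log2(FPKM + 1), Smox was called in no knockout: the log2 changes were 0.30 in Taf5l-KO (adjusted p = 0.124), 0.16 in Taf6l-KO (adjusted p = 0.389) and -0.53 in cMyc-KO (adjusted p = 0.152). The length implied by its counts and FPKM varied from 99.2 to 186 bases between libraries, below the 326 bases of its shortest annotated transcript, and 5 of the 9 genes had such implied lengths. For this reason the order of the 9 genes was taken from CPM per kilobase, with that of FPKM given beside it.

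Of the antizyme system, both antizymes rose in the Taf knockouts and neither was called in cMyc-KO. Oaz1 (ENSMUSG00000035242.8, chromosome 10) had 279, 284 and 293 CPM in Taf5l-KO and 284, 286 and 282 CPM in Taf6l-KO, against 267, 249 and 240.0 CPM in WT-Taf. All knockout libraries were higher, with log2 fold changes of 0.18 ± 0.038 (edgeR adjusted p = 0.00209) and 0.17 ± 0.038 (adjusted p = 0.00255). Both calls were lost in the single fit of all libraries (adjusted p = 0.147 and 0.154). Oaz1 had 217, 207 and 167 CPM in cMyc-KO, against 212, 195 and 219 CPM in WT-Myc; these overlapped (-0.09 ± 0.099, adjusted p = 0.540), and without cMyc-KO replicate 3 the value was 0.04.

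Oaz2 (ENSMUSG00000040652.8, chromosome 9), the second broadly expressed antizyme, had 63.9, 66.0 and 60.2 CPM in Taf5l-KO and 62.7, 67.4 and 65.5 CPM in Taf6l-KO, against 52.7, 53.4 and 56.7 CPM in WT-Taf. No library of the knockouts overlapped WT-Taf, and the log2 fold changes were 0.23 ± 0.046 (edgeR adjusted p = 0.00160) and 0.27 ± 0.045 (adjusted p = 0.000354). On log2(FPKM + 1) the rise in Taf6l-KO was 0.15 and not called (limma adjusted p = 0.150). In cMyc-KO it had 47.2, 48.2 and 47.3 CPM, against 47.2, 45.8 and 45.1 CPM in WT-Myc, which overlapped (0.05 ± 0.049, adjusted p = 0.491).

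Azin1 (ENSMUSG00000037458.8, chromosome 15), the antizyme inhibitor, was called in no knockout. It had 164, 183 and 184 CPM in Taf5l-KO and 191, 191 and 198 CPM in Taf6l-KO, against 184, 184 and 178 CPM in WT-Taf. Only the Taf6l-KO libraries were all above WT-Taf, by 0.09 ± 0.042 on the log2 scale (edgeR adjusted p = 0.118), and with library totals in place of TMM factors this was called (0.16, adjusted p = 0.00968). It had 126, 141 and 198 CPM in cMyc-KO, against 159.6, 145 and 126 CPM in WT-Myc, with overlap (0.11 ± 0.166, adjusted p = 0.634). The value there was -0.08 without cMyc-KO replicate 3. Without that library, 4 of the 9 genes were called in cMyc-KO, all lower (Srm, Sms, Smox and Amd1), and over all genes 5923 were called, 2876 higher and 3047 lower, in place of 5064.

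Set directly against each other, Taf6l-KO and Taf5l-KO differed for 4 of the 9 genes, 2 higher and 2 lower, beside 18.7% of all tested genes (8.55% higher, 10.1% lower); groups did not overlap for 34.7% of tested genes. With library totals the split over all genes was 3045 higher and 618 lower, in place of 1346 and 1592. Odc1 was lower in Taf6l-KO by 0.10 ± 0.031 (edgeR adjusted p = 0.0400) and Srm by 0.14 ± 0.035 (adjusted p = 0.0110). Smox was higher in Taf6l-KO by 0.27 ± 0.080 (adjusted p = 0.0298) and Azin1 by 0.13 ± 0.041 (adjusted p = 0.0445). These calls were unstable: Odc1 was called under 4 of 16 alternatives, Azin1 under 6, Smox under 5 and Srm under 13, and on FPKM the value of Smox was -0.14. With library totals the differences of Odc1 and Srm were -0.01 and -0.05.

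Whether the Taf knockouts and the Myc knockout changed a gene by different amounts was tested as the difference of their log2 fold changes over all 15 libraries; the 2 differences share the WT-Taf, cMyc-KO and WT-Myc libraries. For Taf5l-KO minus cMyc-KO, 3 of the 9 genes were called, 2 above 0 and 1 below, beside 32.1% of 16286 tested genes (15.7% above, 16.4% below). For Taf6l-KO minus cMyc-KO, 4 were called, 3 above 0 and 1 below, beside 34.8% (17.1% above, 17.7% below); library totals gave 3271 above and 2107 below over all genes, in place of 2785 and 2880. Sms differed by 0.80 ± 0.106 for Taf5l-KO (edgeR adjusted p = 2.99e-05) and 0.71 ± 0.105 for Taf6l-KO (adjusted p = 7.70e-05). Smox differed by 1.08 ± 0.141 (adjusted p = 2.80e-05) and 1.35 ± 0.139 (adjusted p = 1.92e-06). Sat1 differed the other way, by -0.68 ± 0.102 (adjusted p = 9.73e-05) and -0.65 ± 0.101 (adjusted p = 0.00013). The differences of Sms and Sat1 were called under all 20 alternatives, and that of Smox under 19 for Taf5l-KO and 17 for Taf6l-KO. The experiment is part of each of these differences, and its libraries differed in RNA makeup as described above.

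For the other 6 genes the difference was called under neither Taf knockout, apart from Oaz2 for Taf6l-KO (0.18 ± 0.066, edgeR adjusted p = 0.0495), a call lost under 17 of 20 alternatives. Odc1 differed by -0.01 ± 0.054 (adjusted p = 0.919) for Taf5l-KO and -0.11 ± 0.054 (adjusted p = 0.142) for Taf6l-KO. Srm, lower in all 3 knockouts, differed by 0.25 ± 0.0985 (adjusted p = 0.0678) and 0.11 ± 0.0985 (adjusted p = 0.442), the Taf5l-KO difference being called under 4 of 20 alternatives. Without cMyc-KO replicate 3, the difference of Amd1 was called for both Taf knockouts (0.31 and 0.27, adjusted p = 0.0149 and 0.0295), and that of Odc1 for Taf6l-KO (-0.13, adjusted p = 0.0381). Without cMyc-KO replicate 1, the difference of Oaz1 was called for both (0.30 and 0.30, adjusted p = 0.0411 and 0.0430). A p over the threshold does not show that the changes were equal.

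The wider pathway was described with 38 further genes in 5 lists, of which 28 passed the filter. In Taf5l-KO 5 of the 28 rose and 9 fell, in Taf6l-KO 5 rose and 9 fell, and in cMyc-KO 5 rose and 8 fell, with median log2 fold changes of -0.07, -0.09 and -0.07. As shares of the 28, those that rose were 17.9% in each knockout, beside 17.4%, 19.1% and 15.2% of all tested genes, and those that fell were 32.1%, 32.1% and 28.6%, beside 15.9%, 18.2% and 19.5%. Up to 3 genes per list with the smallest p among those called are named for each knockout; the 4 calls this leaves out were named after their values were seen, and are marked as such.

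Among the 6 tested genes that supply arginine and ornithine, Oat, ornithine aminotransferase, rose in all 3 knockouts, by 0.31 ± 0.043 in Taf5l-KO, 0.46 ± 0.042 in Taf6l-KO and 0.53 ± 0.059 in cMyc-KO. Its mean was 62.8 ± 1.95 CPM in Taf5l-KO and 69.7 ± 2.31 in Taf6l-KO, against 50.8 ± 1.95 in WT-Taf, and 104 ± 5.98 in cMyc-KO, against 72.0 ± 1.85 in WT-Myc (SD, n = 3 each). Ass1, argininosuccinate synthase, which makes the precursor of arginine, fell in all 3, by 0.28 ± 0.036, 0.23 ± 0.036 and 0.51 ± 0.050. Slc7a3, a cationic amino acid transporter encoded on chromosome X, fell by 0.46 ± 0.032 in Taf5l-KO and 0.54 ± 0.032 in Taf6l-KO, and its value in cMyc-KO was -0.01 ± 0.057. It averaged 150.3 ± 3.72 CPM in Taf5l-KO and 142.5 ± 3.37 in Taf6l-KO, against 207 ± 2.51 in WT-Taf. Slc7a1, a transporter of the same family, fell by 0.21 ± 0.051 in cMyc-KO, a call lost under 7 of 15 alternatives. Outside the naming rule, it also fell by 0.21 ± 0.038 in Taf6l-KO, lost under 1 of 16.

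Among the 8 tested genes of S-adenosylmethionine supply and of salvage of the methylthioadenosine that polyamine synthesis leaves behind, Mtap, the phosphorylase that opens salvage, rose by 0.29 ± 0.038 in Taf5l-KO and 0.40 ± 0.038 in Taf6l-KO. It averaged 84.8 ± 3.89 CPM in Taf5l-KO and 91.7 ± 1.80 in Taf6l-KO, against 69.6 ± 0.89 in WT-Taf. Enoph1, a later enzyme of the same route, fell by 0.30 ± 0.042 and 0.29 ± 0.041. Mat2b, a regulatory subunit of methionine adenosyltransferase, fell by 0.28 ± 0.037 in Taf5l-KO and 0.52 ± 0.056 in cMyc-KO, and rose by 0.12 ± 0.035 in Taf6l-KO, the last lost under 9 of 16 alternatives. Of the other salvage enzymes, Adi1 rose by 0.51 ± 0.060 and Mri1 fell by 0.59 ± 0.0865 in cMyc-KO. Outside the naming rule, 3 more genes of the list were called in Taf5l-KO. Adi1 rose by 0.18 ± 0.035, and Mat2a, a catalytic subunit of methionine adenosyltransferase, fell by 0.18 ± 0.035, lost under 1 of 16 alternatives. Ahcy, which hydrolyses S-adenosylhomocysteine, rose by 0.65 ± 0.131, more than any other called gene of the list there, with values of 0.53 to 1.71 over the alternatives.

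Of the 6 tested transport genes, Slc47a1, an exporter of organic cations, fell by 0.68 ± 0.100 in Taf5l-KO and 0.55 ± 0.098 in Taf6l-KO and rose by 0.57 ± 0.086 in cMyc-KO. Its Taf6l-KO call was lost under 1 of 16 alternatives. Slc3a2, a subunit of amino acid transporters, fell by 0.21 ± 0.032 in each Taf knockout. Slc18b1, a vesicular polyamine transporter, rose by 0.37 ± 0.082 in cMyc-KO, a call lost under 1 of 15 alternatives. Less stable were Slc12a8 in cMyc-KO (-0.51 ± 0.130, lost under 7 of 15 alternatives), Atp13a2, the lysosomal polyamine exporter, in Taf5l-KO (0.14 ± 0.050, lost under 15 of 16) and Atp13a3 in Taf6l-KO (-0.10 ± 0.036, lost under 11 of 16).

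Spermidine is also the substrate from which the translation factor eIF5A receives its hypusine. Dhps, the enzyme of the first step, fell by 0.49 ± 0.079 in cMyc-KO, and by 0.17 ± 0.054 in Taf5l-KO and 0.18 ± 0.053 in Taf6l-KO, calls lost under 9 and 8 of 16 alternatives. Eif5a rose by 0.15 ± 0.028 in Taf6l-KO, a call lost under 1 of 16 alternatives, and fell by 0.18 ± 0.042 in cMyc-KO. Eif5a2 fell by 0.21 ± 0.065 in Taf6l-KO, a call lost under 9 of 16 alternatives, and rose by 0.42 ± 0.132 in cMyc-KO. The cMyc-KO calls of Eif5a and Eif5a2 were each lost under 7 of 15 alternatives. Among the 4 tested genes of further synthesis, inhibition and breakdown, Azin2, a second antizyme inhibitor, rose by 0.73 ± 0.126 in Taf6l-KO and fell by 0.62 ± 0.122 in cMyc-KO, both kept under every alternative. Its mean CPM was 5.66 ± 0.645 (Taf6l-KO) beside 3.43 ± 0.255 (WT-Taf), and 5.98 ± 0.524 (cMyc-KO) beside 9.14 ± 1.10 (WT-Myc), with SD over 3 libraries. Sat2 fell by 0.93 ± 0.288 in Taf5l-KO, with means of 0.553 CPM in Taf5l-KO and 1.06 CPM in WT-Taf, a call lost under 6 of 16 alternatives.

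**Figure D4:**
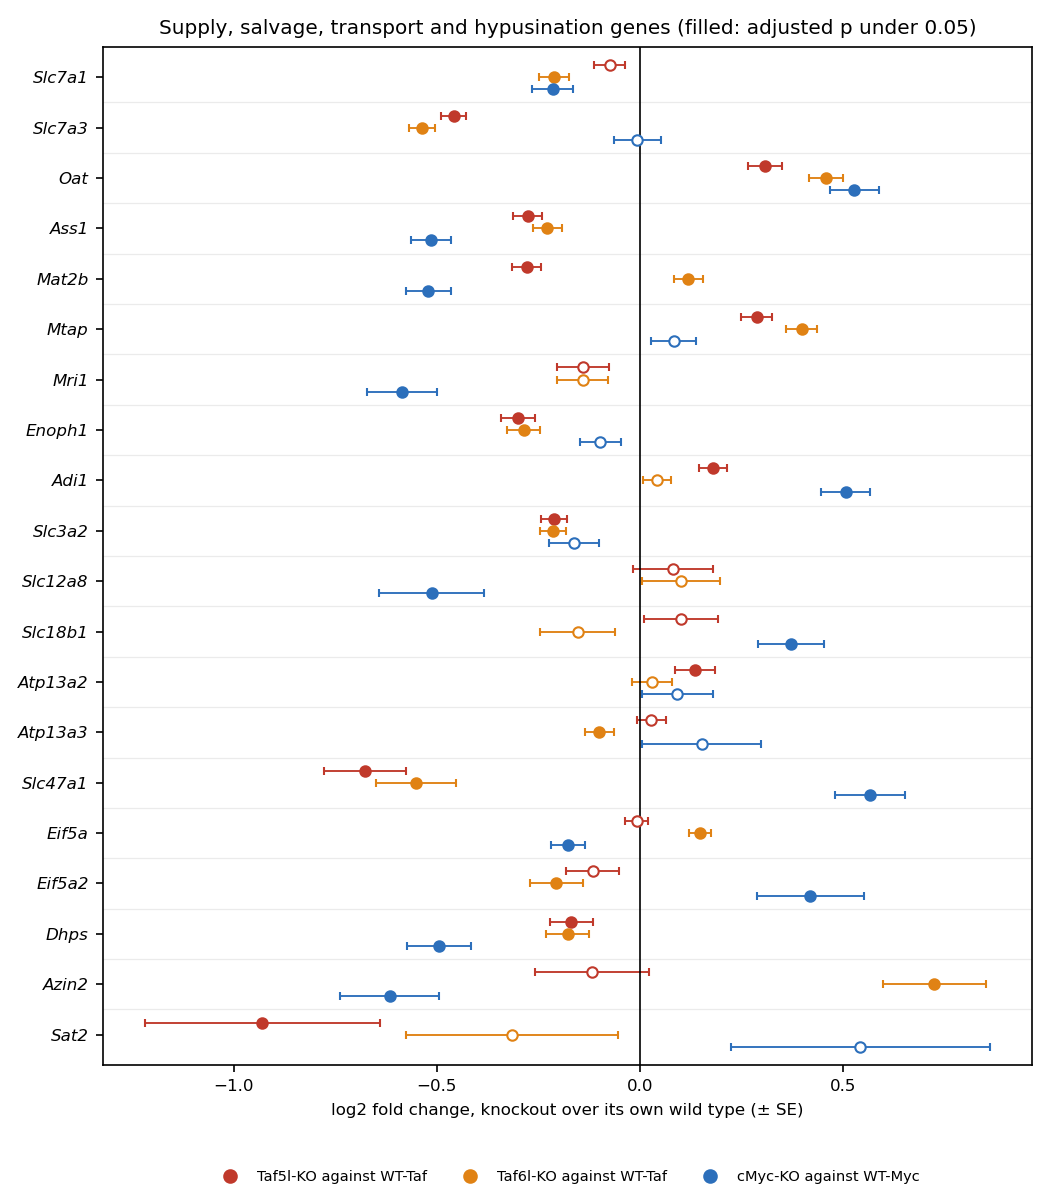
Log2 fold change of the named genes of the wider pathway in each knockout over its own wild type, with bars of 1 SE; filled points passed an adjusted p of 0.05. Oat lay above 0 and Ass1 below 0 in all 3 knockouts, and Slc47a1 lay below -0.5 in both Taf knockouts and above 0.5 in cMyc-KO.

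The genes whose profile was most like that of Odc1 were Wdr46 (Pearson r = 0.96), Uba2 (0.93), Grasp (0.92), Irak1 (0.92) and Ckap4 (0.92), over 15 libraries and 9438 genes with at least 100 counts on average in each group. Profiles were log CPM minus the mean of the wild type of the same experiment, so the libraries share those means, and the values are descriptions. Of the other 8 genes of the set, Srm had the highest likeness to Odc1 (r = 0.67, above 90.8% of genes), followed by Sat1 (0.52), and Oaz2 the lowest (-0.81). The 5 genes were picked by likeness to Odc1 in these same libraries. Their negative values in all 3 knockouts come with that choice and are no separate result. Irak1 had log2 fold changes of -0.50 ± 0.044 (Taf5l-KO), -0.69 ± 0.044 (Taf6l-KO) and -0.39 ± 0.067 (cMyc-KO). In the same order, Wdr46 had -0.17 ± 0.039, -0.36 ± 0.039 and -0.19 ± 0.066. In cMyc-KO, Wdr46 and Uba2 were not called (edgeR adjusted p = 0.0614 and 0.0920).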

How the data were processed

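J1 cell RNA was depleted of ribosomal RNA and made into strand-specific libraries, per the labels' protocols. Salmon 0.8.2, DESeq2 1.14.1 and mm9 are named in the submitters' processing notes, with no role given. The deposited values used were the authors' estimated counts (all whole numbers) and their FPKM. Of 37310 genes, 32620 matched GENCODE M21 (GRCm38) by ID, which gave chromosomes and transcript lengths.

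The main test was edgeR 4.0.16 in R 4.3.3 on the estimated counts: TMM factors, filterByExpr, the quasi-likelihood fit and Benjamini-Hochberg adjustment over all genes tested. One fit held the 9 Taf libraries, another the 6 Myc libraries, and the differences between effects used all 15. Each SE is the size of the log2 ratio over the square root of F. Variation between replicate libraries beyond counting noise, as edgeR's coefficient, came to 4.23% (Taf) and 10.2% (Myc). FPKM were tested by limma 3.58.1 after adding 1 or 0.1 and taking log2, which understates changes of low genes; genes averaging under 0.5 FPKM were dropped, or no gene was. Further alternatives replaced TMM by RLE or library totals, dropped the filter, used DESeq2 1.42.0, added the replicate number as a block, pooled all libraries, kept only the groups compared, or left out each library. Scripts were tested on simulated data. No replicate pair was alike within sampling noise, and each library was taken as 1 sample. This does not show whether replicates were separate cultures.

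Members and lists were chosen with earlier results of these data known. The text names the 9 genes, the targeted genes and MYC family, up to 3 called genes per list and knockout by smallest p (with 4 further calls, chosen after their values were seen), and the 5 genes most like Odc1. The normalized counts and TPM were not used here.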

Additional observations from a re-analysis of the deposited data

Results flagged for a closer look

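For 3 of the 9 genes, the change differed between each Taf knockout and the Myc knockout. The difference of log2 fold changes was itself tested (edgeR, adjusted over all genes). Such calls were common, at 32.1% (Taf5l-KO minus cMyc-KO) and 34.8% (Taf6l-KO minus cMyc-KO) of all 16286 tested genes. Knockout and wild-type libraries did not overlap for 44.7% of tested genes in Taf5l-KO, 49.0% in Taf6l-KO and 49.6% in cMyc-KO. Sms differed by 0.80 (Taf5l-KO minus cMyc-KO, adjusted p = 2.99e-05) and 0.71 (Taf6l-KO minus cMyc-KO, adjusted p = 7.70e-05), and was higher in 3 of 3 libraries of each Taf knockout and lower in 3 of 3 of cMyc-KO. Smox differed by 1.08 (adjusted p = 2.80e-05) and 1.35 (adjusted p = 1.92e-06), with the same split of libraries on counts. On log2(FPKM + 1) its difference for Taf6l-KO was 0.69 and not called (limma adjusted p = 0.0696). Sat1 differed by -0.68 (adjusted p = 9.73e-05) and -0.65 (adjusted p = 0.00013), lower in 3 of 3 libraries of each Taf knockout and higher in 3 of 3 of cMyc-KO. Oaz2 differed by 0.18 for Taf6l-KO only just past the threshold (adjusted p = 0.0495). The experiments differ in RNA makeup as well as in the gene removed, and these cannot be told apart in a difference between them.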

How the results depend on the processing

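Of 17 calls of the 9 genes in the 3 knockouts, those of Sms in Taf5l-KO and cMyc-KO, Srm in Taf6l-KO and cMyc-KO, Sat1 in both Taf knockouts, Oaz2 in Taf5l-KO and Odc1 in Taf6l-KO were kept under every alternative run. Taf6l-KO against Taf5l-KO was the least stable, with 4 of the 9 genes (2938 of all genes) called in the main fit. With library totals edgeR called 2 (3663 of all genes), and with only the groups compared 2 (2559 of all genes). The single fit of all libraries gave 0 (1647 of all genes), and DESeq2 called 2 (1849 of all genes). Limma on log2(FPKM + 1), log2(FPKM + 0.1) and log2(FPKM + 1) without a filter called 2, 2 and 1 (926, 923 and 722 of all genes). In the same order of FPKM settings, 2, 2 and 2 of the genes were called in cMyc-KO (3164, 3173 and 2705 of all genes). For Taf6l-KO minus cMyc-KO they were 2, 2 and 2 (3854, 3802 and 3631 of all genes). All genes called were then 2633, 2663 and 2216 in Taf5l-KO and 3118, 3124 and 2653 in Taf6l-KO, where 4 of the 9 were called without a filter. For the differences, log2(FPKM + 0.1) gave 3457 of all genes (Taf5l-KO minus cMyc-KO), and no filter gave 3228 (Taf5l-KO) and 3631 (Taf6l-KO). Same-numbered replicates correlated between -0.08 and 0.07 in the Taf and between -0.26 and -0.03 in the Myc experiment. The numbers were therefore not taken as pairs. Differently numbered replicates correlated between -0.07 and 0.08 (Taf) and between -0.09 and 0.22 (Myc). The highest value was that of cMyc-KO replicate 1 with WT-Myc replicate 3. With the replicate number as a block, 6, 7 and 3 of the 9 genes were called in Taf5l-KO, Taf6l-KO and cMyc-KO. Of all genes, 5186, 5757 and 3139 were called there. With each library left out, all genes called ranged over 4243 to 4751 (Taf5l-KO), 4933 to 5136 (Taf6l-KO), 3402 to 5923 (cMyc-KO), 2022 to 2634 (Taf6l-KO against Taf5l-KO), 4478 to 5766 (Taf5l-KO minus cMyc-KO) and 4950 to 6348 (Taf6l-KO minus cMyc-KO), and of the 9 genes 6 to 6, 7 to 7, 3 to 4, 0 to 3, 3 to 5 and 3 to 5. Of 33 values that changed sign, 3 were of a called value (Smox, Taf6l-KO against Taf5l-KO) and 0 were called after the change by limma, DESeq2 or edgeR. On FPKM they were -0.1352, -0.1368 and -0.1352 for Smox, -0.0728, -0.0733 and -0.0728 for Sat1 and -0.1327, -0.1332 and -0.1327 for Oaz2 (Taf6l-KO against Taf5l-KO), and 0.0021 for Azin1 (Taf6l-KO minus cMyc-KO). Library totals gave 0.0616 for Amd1 (Taf6l-KO), 0.0021 for Sms, 0.0486 for Amd1 and 0.0828 for Oaz1 (Taf6l-KO against Taf5l-KO) and 0.004 for Azin1 (Taf6l-KO minus cMyc-KO), and Odc1 (Taf5l-KO minus cMyc-KO) was 0.009 with RLE and 0.0055 with DESeq2. Leaving out libraries moved Azin1 over -0.0701 to 0.0108 (Taf5l-KO), -0.083 to 0.2464 (cMyc-KO), -0.3185 to 0.0076 (Taf5l-KO minus cMyc-KO) and -0.1886 to 0.1372 (Taf6l-KO minus cMyc-KO), Oaz1 over -0.0254 to 0.0103 (Taf6l-KO against Taf5l-KO) and -0.1547 to 0.0409 (cMyc-KO), Amd1 over -0.0226 to 0.0176 (Taf6l-KO) and Odc1 over -0.0359 to 0.0184 (Taf5l-KO minus cMyc-KO). The cause was not tested in any of these.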
